A study of Mus musculus with 14 samples.

Results

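The myogenic regulatory factor genes Myod1, Myf5, Myf6 and Myog were followed through 12 MyoD and MyoG ChIP-seq peak lists from mouse muscle stem cells. All peaks that the lists assign to 1 of these gene names were taken, whatever their distance or score. They amounted to 13 of 10303 peaks, and 2 of the 4 genes, Myod1 and Myog, had any. Myf5 and Myf6 had none in any library and count as not bound.

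The mice were wild-type and carried a mito-Dendra2 reporter that a Pax7-Cre(ERT2) driver switches on, so labelling depended on Pax7 expression at the time of tamoxifen (75 mg/kg daily for 5 days). At 2 days after the last dose, the tibialis anterior muscle received 50 uL of 1.2% BaCl2 and the opposite muscle saline. At 2 days post injury, activated stem cells (ASCs: CD34-, Dendra2+, DAPI-) were sorted from injured muscle and quiescent stem cells (QSCs: CD34+, Dendra2+, DAPI-) from the saline-injected muscle. Both states were profiled with a MyoD and a MyoG antibody, in 3 replicates for each pair of state and antibody. The labels do not say which animals a replicate came from or whether animals were pooled, so p-values measure the spread between these libraries only. The lists hold no RNA levels, so the cell states could not be checked against marker genes. A peak is a stretch with more ChIP reads than background, and its score is minus 10 times the log10 of the peak caller's p-value. The lowest score in the lists was 50, a p-value of 1e-05. List length differed widely. In ASCs the MyoD libraries held 2262 to 2652 peaks and the MyoG libraries 605 to 916. In QSCs the MyoD libraries held 139 to 174 and the MyoG libraries 120 to 167. Read depth was unknown, and a score depends on it, so scores were read within a list as a percentile.

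The 4 genes encode basic helix-loop-helix transcription factors that bind E-boxes (CANNTG) as dimers with E proteins. Myf5 and MyoD commit cells to the muscle lineage, myogenin drives their terminal differentiation, and MRF4, the product of Myf6, acts in differentiating cells and mature fibers. MyoD is known to bind regulatory elements of its own gene and to activate Myog. Quiescent stem cells are known to express Myf5, and MyoD protein accumulates when they activate.

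The only region of these genes at a promoter lay at Myog, so its promoter sequence is shown beside that of Myf5, which had no peak. Promoter sequences from RefSeq (GRCm38.p6, the assembly that mm10 corresponds to) matched 2 of the 4 genes. Both are the 250 bases before the transcript start of that table, written 5′ to 3′ on the gene's strand, with E-boxes (CANNTG) in capitals. The Myog stretch is chr1:134289754-134290003 on the plus strand and the Myf5 stretch chr10:107486135-107486384 on the minus strand. The Myf5 start used there lies 793 bp inside the bounds of the gene, which has a second transcript model.
Myog: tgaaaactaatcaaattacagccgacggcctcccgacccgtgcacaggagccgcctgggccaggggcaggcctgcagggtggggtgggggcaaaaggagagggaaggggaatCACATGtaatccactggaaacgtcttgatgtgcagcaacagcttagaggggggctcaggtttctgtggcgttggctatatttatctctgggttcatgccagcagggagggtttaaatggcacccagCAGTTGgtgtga
Myf5: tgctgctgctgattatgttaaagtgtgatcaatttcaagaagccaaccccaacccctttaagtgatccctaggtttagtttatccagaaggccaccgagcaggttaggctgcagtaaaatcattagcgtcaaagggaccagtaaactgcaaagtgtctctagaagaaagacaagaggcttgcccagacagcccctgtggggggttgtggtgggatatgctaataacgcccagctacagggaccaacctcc

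The Myog stretch held 2 E-boxes, CACATG at 138 to 133 bases and CAGTTG at 12 to 7 bases before the start. The Myf5 stretch held none. Of 32851 promoter stretches of the same length, 66.2% held at least 1 E-box and 31.8% held 2 or more, so the presence of E-boxes sets neither gene apart. The forms CAGCTG and CACCTG (both strands searched) occurred in 13% and 17.2% of all promoters and in neither of these. The MEF3 element TCAGGTTTC lay 84 to 76 bases before the Myog start and occurred in 0.387% of all promoters on either strand. The pattern CTANNNNTA, a looser form of the MEF2 site, whose middle bases are A or T, lay 64 to 56 bases before the Myog start as CTATATTTA. It also matched in Myf5 at 182 to 174 bases as CTAGGTTTA, whose middle holds G and which is no MEF2 core, and again 1 base away on the other strand. The loose pattern occurred in 19% of all promoters.

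MyoD peaks were called at these genes in ASCs and not in QSCs. Each ASC MyoD library held 4 peaks assigned to them (mean 4 ± 0, SD, n = 3) and each QSC MyoD library 0. An exact permutation test, two-sided, gave a p-value of 0.1 (adjusted 0.2 over 4 tests), the smallest that 3 libraries against 3 allow, so no comparison here could reach 0.05. The groups did not overlap. The length of the lists limits this comparison: the members took 1.67 ± 0.143 of every 1000 ASC MyoD peaks (SD, n = 3). At that share, a QSC MyoD list would hold 0.233 to 0.291 such peaks, fewer than 1. An absence of MyoD from these genes in QSCs was therefore not detectable with lists of this length.

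With MyoG, a single peak was called at the 4 genes, at Myod1 in ASC replicate 2. The mean was 0.333 ± 0.577 peaks per library in ASC MyoG (SD, n = 3) and 0 in QSC MyoG (exact permutation p-value 1, adjusted 1). Within ASCs, MyoD exceeded MyoG by 3.67 peaks per library (exact permutation p-value 0.1, adjusted 0.2). Per 1000 listed peaks the ASC MyoG share was 0.551 ± 0.954 (SD, n = 3), and the exact permutation p-value against MyoD was 0.2. At the ASC MyoD share, ASC MyoG lists would hold 1.01 to 1.53 member peaks each. In QSCs neither antibody gave a peak at any of the 4 genes (exact permutation p-value 1, adjusted 1).

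**Figure D1:**
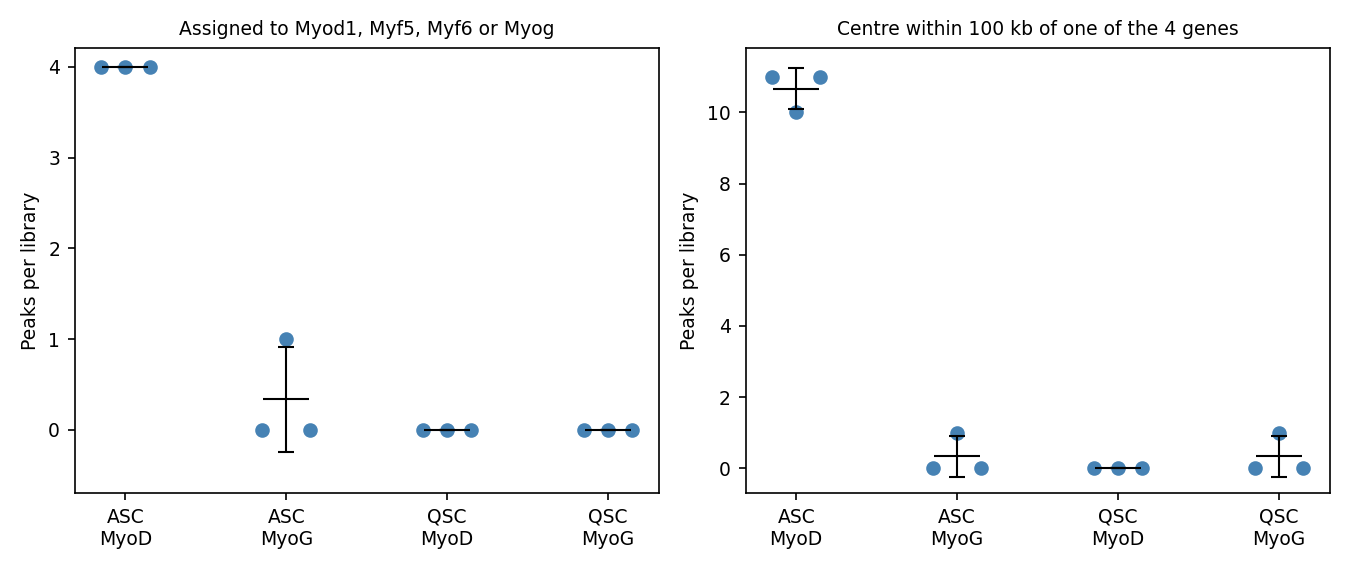
Peaks per library in the 4 groups (points: libraries; bars: mean and SD, n = 3), on the left those assigned to Myod1, Myf5, Myf6 or Myog and on the right those centred within 100 kb of these genes. The 3 ASC MyoD libraries held 4 assigned peaks each and 10 or 11 within 100 kb, while all other libraries held 0 or 1.

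Across all protein-coding genes in RefSeq (21900), 5.95% had a region called in at least 2 ASC MyoD libraries, against 2 of the 4 members. The same share was 0.201% for ASC MyoG, 0.0594% for QSC MyoD and 0.0183% for QSC MyoG, with 0 of 4 members in each. Joined over libraries, the MyoD peaks of the 4 genes formed 5 regions, 4 at Myod1 and 1 at Myog. Of these, 4 were called in at least 2 ASC MyoD libraries, against 44.3% of all MyoD regions. None of these 4 had a QSC MyoD peak, which was the case for nearly all recurring regions. With ASC and QSC MyoD peaks joined, 1986 regions were called in at least 2 ASC MyoD libraries. Of these, 1976 had no QSC MyoD peak, which is 44% of all MyoD regions. At Myod1, 3 regions were called in all 3 ASC libraries, against 24.7% of all MyoD regions. With 5 regions from 2 genes these shares describe the members and were not tested.

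Myod1 (ENSMUSG00000009471, chromosome 7, 46376474 to 46379092), which encodes MyoD itself, carried 3 MyoD regions in every ASC library, all upstream of the gene and annotated as distal intergenic. No peak was called at its promoter or in its body. Distances are from the gene start to the mean peak centre. The region at -27.5 kb (chr7:46348425-46349445) had scores of 239.7, 130.25 and 75.96 in ASC MyoD replicates 1, 2 and 3. The region at -26.2 kb (chr7:46349729-46350895) scored 109.55, 247.1 and 128.72. The region at -23.1 kb (chr7:46352821-46353939) scored 154.06, 73.34 and 97.96. The region of highest score was the first in replicate 1 and the second in replicates 2 and 3.

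Mean percentiles within the ASC MyoD lists were 80.5 ± 18.5, 86.9 ± 10.4 and 71.9 ± 18.8 (SD, n = 3). The ranges over the libraries overlapped (60.1 to 96.1, 76.8 to 97.5 and 51.6 to 88.7), and the differences between the regions were not tested. As deposited scores the means were 149 ± 83.4, 162 ± 74.5 and 108 ± 41.4. Each of the 9 peaks lay above the median of its list, the lowest at 51.6. Positions varied little: peak centres had an SD of 65.5, 56.5 and 78.2 bp over the libraries, beside mean peak widths of 883, 1028 and 931 bp. The first pair of regions is separated by 283 bp and the third follows after 1925 bp. When peaks within 500 bp were joined, the first pair became 1 region.

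Another MyoD region lay nearer to Myod1, at -10.4 kb (chr7:46365741-46366464), and was called in ASC replicate 2 only, with a score of 80.26 (percentile 59.2). The only MyoG peak of the family (chr7:46350057-46350712, ASC replicate 2) lay inside the MyoD region at -26.2 kb. Its score of 53.96 ranked 420 of the 605 peaks in that list, a percentile of 30.7. In the 3 ASC MyoG libraries, 29 to 31 peaks (3.38% to 4.85%) overlapped a MyoD region called in at least 2 ASC libraries. Myod1 is known to have upstream enhancers, the core enhancer and the distal regulatory region, whose positions were not part of the files used here.

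**Figure D2:**
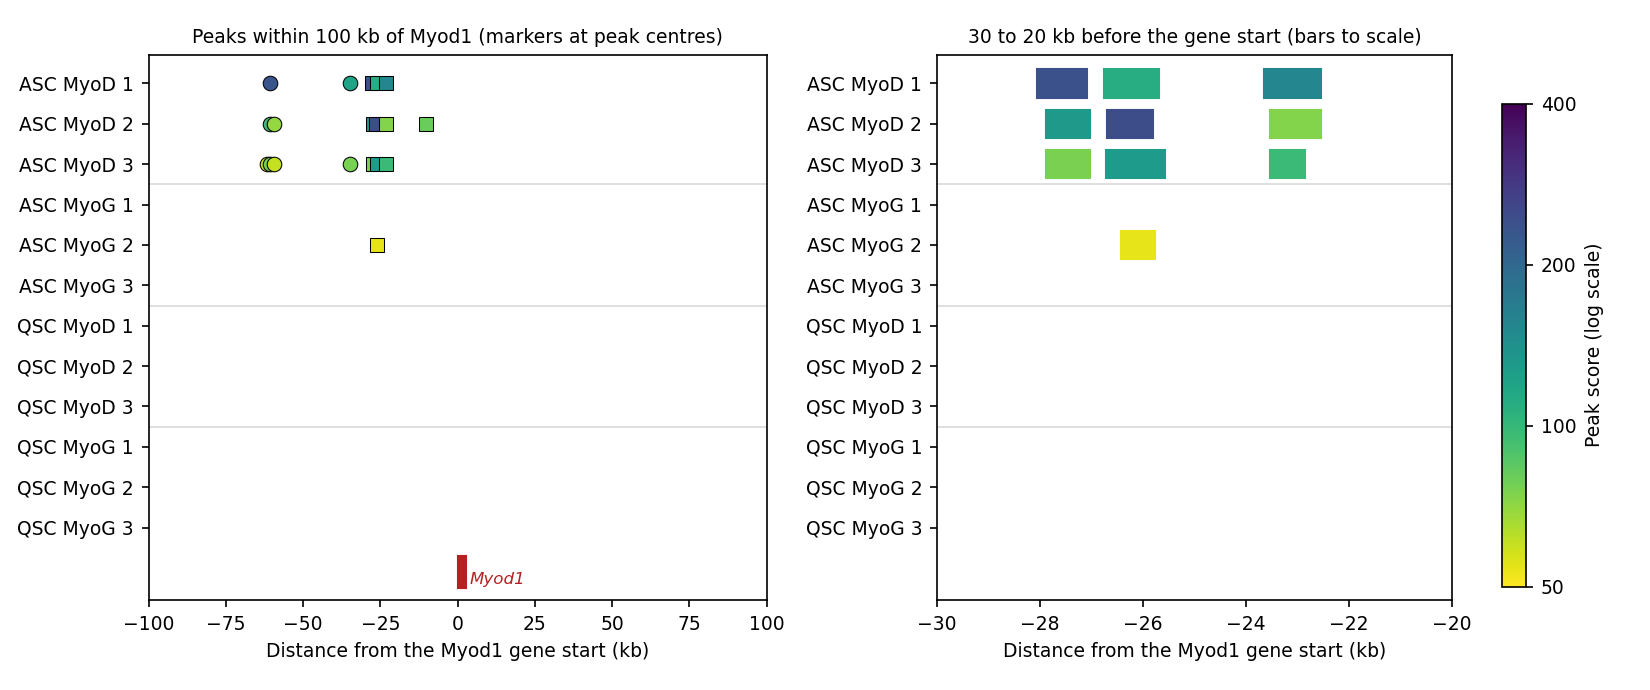
Peaks around Myod1 in the 12 libraries by distance from the gene start in kb (left: peak centres, squares assigned to Myod1 and circles to Otog; right: peak extents to scale), coloured by score on a log scale. The 3 ASC MyoD libraries share regions at -27.5, -26.2 and -23.1 kb, the MyoG peak of ASC replicate 2 falls on the middle region, and the QSC libraries have no peak.

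Myod1 was 1 of 61 genes with 3 or more such regions among 1623 genes with any region in at least 2 ASC MyoD libraries (3.76%). The 3 regions span 5515 bp in all. Among 1107 regions called in all 3 ASC MyoD libraries, no other triple lay within that span or within 10 kb. Within 20 kb there were 4 triples, and the other 3 were assigned to Igsf3, Mir206 and Plet1. Mir206 is a muscle microRNA gene. Joined from ASC MyoD peaks only, 1985 regions were called in at least 2 ASC MyoD libraries. Among these, the Myod1 triple was again the only one within 5515 bp. Within 10 kb there were 2 triples, which shared regions and held 4 regions in all. These were the 3 Myod1 regions and a region assigned to Otog at -34.8 kb from the Myod1 start. Within 20 kb there were 10 triples, with regions assigned to 9 genes. The spans were chosen with the Myod1 values in view and are given as a description.

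Further MyoD peaks near Myod1 carry the name of the neighbouring gene Otog, which encodes the inner-ear protein otogelin. All 4 Otog regions within 100 kb lie upstream of Myod1. The region at -60.7 kb (chr7:46315243-46316287) was called in all 3 ASC MyoD libraries with scores of 233.93, 95.63 and 77.31. Regions at -59.3 and -34.8 kb were called in 2 ASC MyoD libraries each, with mean scores of 64.9 and 98.4. A region at -61.7 kb was called in replicate 3 only. Counting these, 5, 6 and 7 peaks lay within 100 kb of Myod1 in ASC MyoD replicates 1, 2 and 3. None lay downstream of the gene, and no QSC library had a peak in this window. The nearest QSC MyoD peak was 3196 kb away.

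Myog (ENSMUSG00000026459, chromosome 1, 134290004 to 134292548), the gene for myogenin, had a promoter peak in 2 of 3 ASC MyoD libraries. Its scores were 50.74 in replicate 1 and 54.24 in replicate 3, and no peak was listed in replicate 2. These are close to the lowest score of the lists: the peaks ranked 2594 of 2652 and 1897 of 2296, at percentiles of 2.22 and 17.4. The region (chr1:134289444-134290235) runs from -560 to 231 bp relative to the gene start. Both peaks cover the 250 bases printed above, with both E-boxes and the other motifs named there. At a score of at least 80 no Myog peak remained, and without replicate 1 or replicate 3 Myog was left with a peak in 1 library.

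Stronger MyoD calls lay around Myog under other gene names. The region at -44.6 kb (chr1:134244620-134246133), between the genes Adora1 and Myog and assigned to Adora1, the adenosine A1 receptor gene, scored 389.04, 397.66 and 374.04 in the 3 ASC MyoD libraries. These peaks ranked 23, 10 and 16 in their lists (mean percentile 99.4 ± 0.217, SD, n = 3), far above the Myog promoter. The spread of these scores (mean 387 ± 12.0) was smaller than at any of the 3 Myod1 regions.

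Downstream of Myog, a region at 17.6 kb in intron 23 of Ppfia4 (chr1:134307048-134308138) scored 164.45, 144.39 and 119.25 (mean percentile 87.6 ± 3.30, SD, n = 3). Another Ppfia4 region, in exon 12 at 31.0 kb, was called in 2 ASC MyoD libraries. It scored 79.12 in replicate 1 and 52.64 in replicate 2 (percentiles 54.7 and 8.62), the latter in the range of the Myog promoter peaks. A further Ppfia4 region at 12.7 kb was called in replicate 1 only, with a score of 63.27. At -93.9 kb, a region was assigned to Mybph, the gene for myosin-binding protein H, and annotated as promoter (1-2 kb or 2-3 kb class). It scored 103.12, 85.04 and 75.73 in ASC MyoD replicates 1, 2 and 3. In all, 6, 4 and 4 MyoD peaks lay within 100 kb of Myog in ASC replicates 1, 2 and 3, and no ASC MyoG or QSC MyoD peak did. The lists give 1 gene for each peak, and which gene a distal region acts on was not measured.

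The region at -44.6 kb was also the only place within 100 kb of the family with a QSC peak. The QSC MyoG list of replicate 2 held a peak there (chr1:134244839-134245817) with a score of 86.35, which ranked 4 of 162 in that list. The other 2 QSC MyoG libraries, the 3 QSC MyoD libraries and the 3 ASC MyoG libraries had no peak there. In QSC MyoG libraries, 2 to 7 peaks overlapped a MyoD region called in at least 2 ASC libraries, and replicate 2 had the most (7 of 162, 4.32%).

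**Figure D3:**
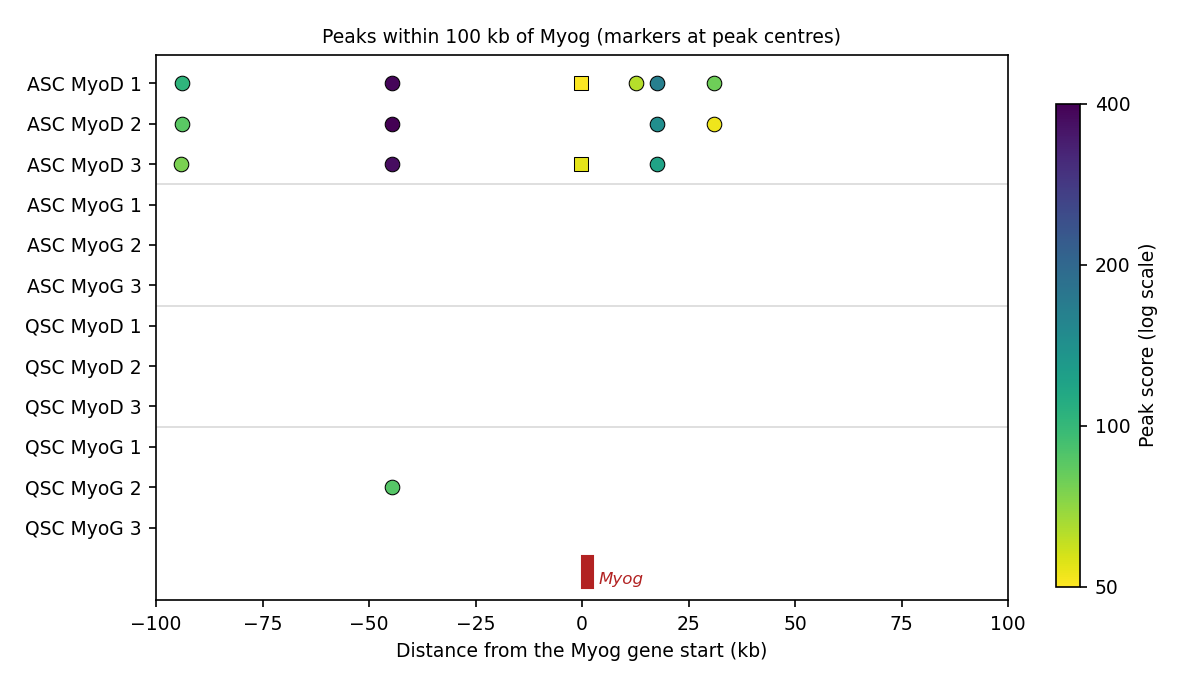
Peak centres around Myog in the 12 libraries by distance from the gene start in kb, coloured by score on a log scale (squares: assigned to Myog; circles: assigned to Mybph, Adora1 or Ppfia4). The promoter peaks scored 50.74 and 54.24, while the region at -44.6 kb scored 374.04 to 397.66 in the 3 ASC MyoD libraries and 86.35 in QSC MyoG replicate 2.

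Myf5 (chromosome 10, 107482908 to 107486927) and Myf6 (chromosome 10, 107492848 to 107494723) lie side by side, and no library had a peak within 100 kb of either. The nearest ASC MyoD peak was 232 kb from Myf5 and 242 kb from Myf6, in replicate 2 only, with a score of 51.99. The nearest ASC MyoG peak was 144 kb and 154 kb away, in replicate 1 only, in intron 2 of Lin7a, with a score of 52.67. In QSCs the nearest MyoD peak was 478 kb from Myf5, in an exon of Acss3, and the nearest MyoG peak 3044 kb. Enhancers of Myf5 and Myf6 are known to be spread over a long interval beside the genes. Over all protein-coding genes, 21.6% had a MyoD region of at least 2 ASC libraries within 100 kb. Myod1 and Myog are among these genes, and Myf5 and Myf6 are not.

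**Figure D4:**
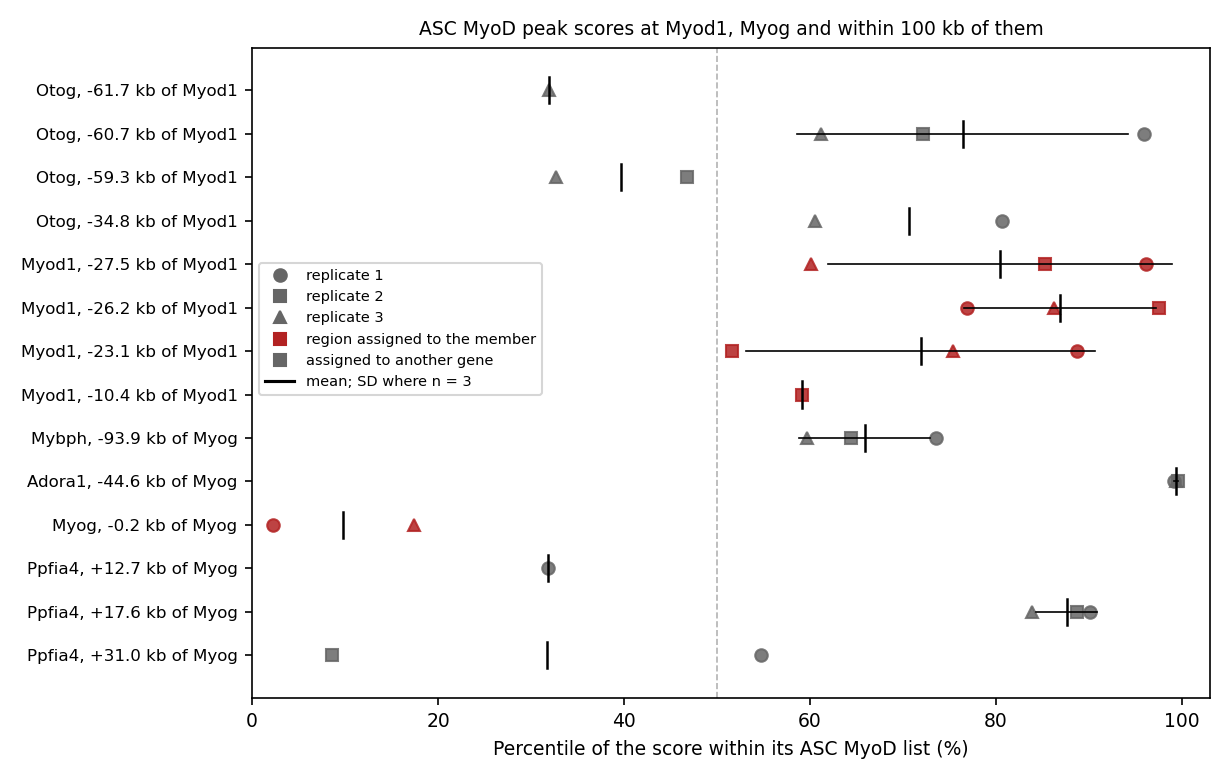
Percentile of each ASC MyoD peak score within its own list, in percent, for every region assigned to Myod1 or Myog (red) or centred within 100 kb of them (grey); symbols are replicates, vertical ticks means and horizontal lines SD where n = 3. The 3 recurring Myod1 regions have mean percentiles of 71.9 to 86.9, the Myog promoter lies at 2.22 and 17.4, and the region at -44.6 kb of Myog lies above 99.

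The number of peaks over the 12 libraries was used to find genes most like each bound member. For Myod1 the closest was Arhgap24, with 3, 4 and 3 ASC MyoD peaks like Myod1 and no MyoG peak, a difference of 1 peak in all. For Myog, 203 genes had the same pattern of 1 peak in ASC MyoD replicates 1 and 3 and none elsewhere. Of these, Mknk2, Gm26608 and Mir5618 had the highest mean percentiles (84.4, 83.4 and 82.2) and were picked for that. Myog itself was at 9.81, and the percentile usual among the 203 genes is not given here.

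Partners and regulators of the family were examined as a list of 24 genes. In ASC MyoD, 6 of them had a region in at least 2 libraries, against 5.95% of protein-coding genes. None did in the other groups. There the share of protein-coding genes was 0.201% (ASC MyoG), 0.0594% (QSC MyoD) and 0.0183% (QSC MyoG). At shares this small, finding none among 24 genes does not set the list apart. Among E-protein genes, whose products dimerise with the 4 factors, Tcf12 had an intron 13 region (chr9:71874392-71875439) with a mean score of 398 ± 82.7 (SD, n = 3), a percentile of 99.3. Tcf4 had 2 regions, the higher in intron 6 with 108 ± 5.30, and Tcf3 had none. Among the Mef2 genes, which encode cofactors of the family, Mef2a and Mef2c had 3 regions each, with the highest mean scores at 258 ± 42.9 (distal) and 112 ± 28.1 (promoter of Mef2c, chr13:83503660-83504689). Mef2b and Mef2d had none.

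Of 11 inhibitor genes only Id2, whose product sequesters E proteins, was called, with 2 regions and a highest mean score of 89.2 ± 6.91 (SD, n = 3). Of 6 upstream factor genes only Eya2, which encodes a transcriptional coactivator, was called, with 1 region in intron 1 at 62.8 ± 19.4. The mean percentile of the Eya2 region was 24.8, and its lowest score of 50.25 lay close to the lowest of the lists. Pax7, Eya1, Hes1 and Bhlhe41 each had a peak in 1 ASC MyoD library. In the other groups, single libraries held a peak at Tcf12 and Mef2a (ASC MyoG), at Tcf4 (QSC MyoD) and at Mef2c (QSC MyoG).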

How the data were processed

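ChIP-seq was performed with 3 replicates in each of 4 groups, taken from the sample titles; the 2 input libraries were not analysed here. The submitters' processing notes name BWA 0.7.5, MACS, deepTools 3.5.0 and mm10. The authors deposited 1 peak list per library with a gene and gene part for each peak, and a score of minus 10 times log10 of the p-value; how genes were assigned, the MACS version, the use of input and any filter are not given in the sources used here. Positions (unit: other) are printed as deposited, by the authors' annotation.

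Members and lists were chosen with earlier results of these data known. Named genes were the 4 members, listed partners with a region in at least 2 libraries of a group, the genes of most similar peak number and those of peaks within 100 kb. Outside this rule, and chosen after their values were seen, are the genes of the nearest peaks to Myf5 and Myf6, of the triples of regions, and of listed regulators with a peak in 1 library or none. Peaks overlapping by 1 bp were joined into regions. Gene bounds came from RefSeq GRCm38.p6, since the lists give no transcript bounds; 4104 of 4384 gene names matched. Peaks per library were tested by exact permutation (two-sided) with Benjamini-Hochberg adjustment over 4 tests (Python 3.11.15, SciPy 1.17.1). Region calling was tested on simulated data. The values of 1 listed regulator are not reported here. Alternatives were a score of at least 80, joining within 500 bp, 50% overlap, 1 or 3 libraries, peaks per 1000, the 100 kb window, a block for the replicate number and leaving out each replicate; the 100 kb window per 1000 peaks was added after seeing the data. Peak lists hold no read counts, so depth is unknown and no count-based interval is given.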

Additional observations from a re-analysis of the deposited data

How the results depend on the processing

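The MyoD difference between ASCs and QSCs and the MyoD over MyoG difference in ASCs kept their direction under every alternative run. These runs included the 100 kb window per 1000 peaks. The QSC MyoD mean was 0 in each setting, so the direction between ASCs and QSCs could not have turned. Its persistence therefore adds nothing to the main result, and the limit from the short QSC lists applies here too. No exact permutation test passed 0.05 in any setting, which the design does not allow. The MyoG difference between ASCs and QSCs was 0 at a score of at least 80 and 0 with peaks within 100 kb of a member, and its direction turned with the latter per 1000 peaks of the library (-1.51). It ranged from 0 to 0.5 when 1 replicate was left out, and was 0 without ASC MyoG replicate 2. The QSC difference between MyoD and MyoG was -0.333 with peaks within 100 kb and -2.06 with these per 1000 peaks, both from 1 peak in QSC MyoG replicate 2. Within 100 kb, 11 regions were called in at least 2 ASC MyoD libraries, and 11 of these had no QSC MyoD peak. Over all genes the same held for 1976 of 1986 such regions, so this does not set the members apart. The number of members with a MyoD peak in at least 2 ASC libraries was 1 at a score of at least 80 and 1 with a peak required in all 3 libraries, and ranged from 1 to 2 when 1 replicate was left out; Myod1 was the member that stayed. The order of the 5 member regions by score was the same by percentile.

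Replicate numbers are shared between groups, but the labels do not say what a number shares. The deviations of same-numbered libraries in log2 peak number correlated from -0.986 to 0.999 between pairs of groups. Each correlation rests on 3 replicate numbers, too few to tell whether same-numbered libraries belong together. With the replicate block, the paired differences were 4 for MyoD and 3.67 within ASCs (exact sign-flip p-value 0.25 for each, the smallest that 3 pairs allow).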
